A study of Mus musculus with 8 samples.

Results

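The cytochrome P450 genes were described across normal-appearing small intestine and tumours of Apc mutant mice, with and without the protease inhibitor HAI-1 in the intestinal epithelium. Members were all genes whose symbol in the platform annotation was Cyp, a number, a letter and a number, with Cyp51 left out, and only probe sets listed for a single gene were used. By that rule 70 genes were members, read by 93 probe sets, out of 18194 genes that had such a probe set. Of these 70, 39 passed the filter on low signal and were tested, among 13119 tested genes in all. The other 31 lay under it, and 20 of those 31 had at least 1 array over the filter value. The rule used names alone, with no measured value.

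All mice were C57BL/6, carried the Min allele of Apc (Apc Min/+), which gives rise to intestinal adenomas, and were homozygous for a floxed Spint1 allele (Spint1 flox/flox). Spint1 encodes HAI-1, a membrane-bound serine protease inhibitor. The control mice had no Cre, and the HAI-1 deficient mice also carried Vil-Cre, a Cre transgene driven by the villin promoter, which is active in intestinal epithelial cells and not in the stroma. The 4 groups, of 2 arrays each, were non-tumour mucosa of control mice, non-tumour mucosa of deficient mice, tumours of control mice and tumours of deficient mice. Mice were on the AIN-76 diet, and 6 ug of total RNA per sample was labelled with biotin for an Affymetrix mouse array. The labels give no age. They leave unsaid if the arrays of a group, or mucosa and tumour, came from different mice, so p-values measure only the spread between these samples, which may be technical. With so few arrays, the precision of all values is limited by their number.

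Cytochrome P450 enzymes are haem proteins of the endoplasmic reticulum and mitochondria that insert an oxygen atom into drugs, dietary compounds, fatty acids, steroids, bile acids and vitamins, with electrons passed on from NADPH. In the small intestine, absorptive enterocytes carry the drug-metabolising members, which act on compounds before they reach the liver. Nuclear receptors such as PXR and CAR induce members of families 2 and 3, and the aryl hydrocarbon receptor induces family 1.

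The HAI-1 gene itself was lower in the deficient groups. Spint1 read 12.87 and 13.00 on the log2 scale in control mucosa and 12.75 and 13.06 in control tumours, against 12.46 and 12.25 in deficient mucosa and 11.76 and 11.84 in deficient tumours, and no deficient array reached a control array. The stroma keeps its alleles in this design, and no source used here places the probe set inside or outside the deleted part. On the second control tumour array the 3' Gapdh probe set was 25.9 times as bright as the 5' set, while this ratio was 0.803 to 1.77 elsewhere. Labelling spike-in controls fell in separate high and low sets: 3 arrays, the second of control mucosa, of deficient mucosa and of deficient tumours, read 9.14 to 9.29, and the other 5 read 7.57 to 8.0. Every log2 value below is a probe set signal, every difference is a limma log2 difference between group means ± its standard error (SE, n = 2 arrays per group), and a gene was called at a Benjamini-Hochberg adjusted p under 0.05 over all 13119 genes.

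The question of what differs between tumour and mucosa was asked within each genotype. In control mice 20 of the 39 tested members were called, 13 lower and 7 higher in tumours. That is 51.3% of the tested members, while 28.8% of all tested genes were called, 7.64% lower and 21.2% higher. The median log2 difference over the tested members was -0.80, against 0.24 over all tested genes. In HAI-1 deficient mice 8 members were called, all 8 lower in tumours, which is 20.5% of the members beside 4.2% of all tested genes, of which 1.75% were lower and 2.45% higher. There the member median was -0.95 and the median of all genes 0.18. In control mice 23 members had every tumour array under every mucosa array and 10 the reverse. Of all tested genes, 23.6% and 45.3% were separated in these directions. In deficient mice 26 and 6 members were, beside 18.9% and 36.6% of all tested genes. The 2 contrasts use different arrays for their means but a shared estimate of the spread from all 8 arrays, so their calls are not independent. When each fit held just the compared groups, 0 members were called in deficient mice. In the main fit 7 genes were called lower in both: Cyp2b10, Cyp2c65, Cyp2c68, Cyp2d22, Cyp3a25, Cyp4f14 and Cyp4v3. In whole tissue, fewer cells of a type and less RNA per cell cannot be told apart.

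How many members passed depended on single arrays. In control mice the count fell from 20 to 9 without the first control mucosa array, to 11 without the second, to 13 without the first control tumour array and to 10 without the second. In deficient mice it fell from 8 to 0 without either control mucosa array or without the second deficient mucosa array and to 1 without the first. Without the first deficient tumour array none of the 8 was kept and the 1 call was Cyp1b1, higher in tumours. Without the second there were 6 calls, of which 2 were among the 8. Within the low spike-in set all 20 differences of control mice kept their sign, and within each set all 8 of deficient mice did. Because these genes were called from the same arrays, such agreement was likely in advance. Both control tumour arrays were in the low set, so dependence on the set could not be assessed within control tumours. A fit with the set as a term takes its shift from the other groups. It called 15 members in control mice, 5 higher and 10 lower, all among the 20. In deficient mice it called 8, of which 7 were among the 8 of the main fit. Under quantile normalization the control-mouse calls were 4 higher and 13 lower, in place of 7 and 13. Of these 17, 15 were also among the 20, and Cyp2c38 and Cyp2d13, both lower, were added. Of the 20 calls in control mice, 7 were kept under every alternative that tested the gene: Cyp1b1, Cyp20a1, Cyp2c68, Cyp2d22, Cyp4f14, Cyp4v3 and Cyp7b1. Cyp7b1 was not tested with the 60th percentile filter. None of the 8 calls in deficient mice was kept in this way.

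**Figure D1:**
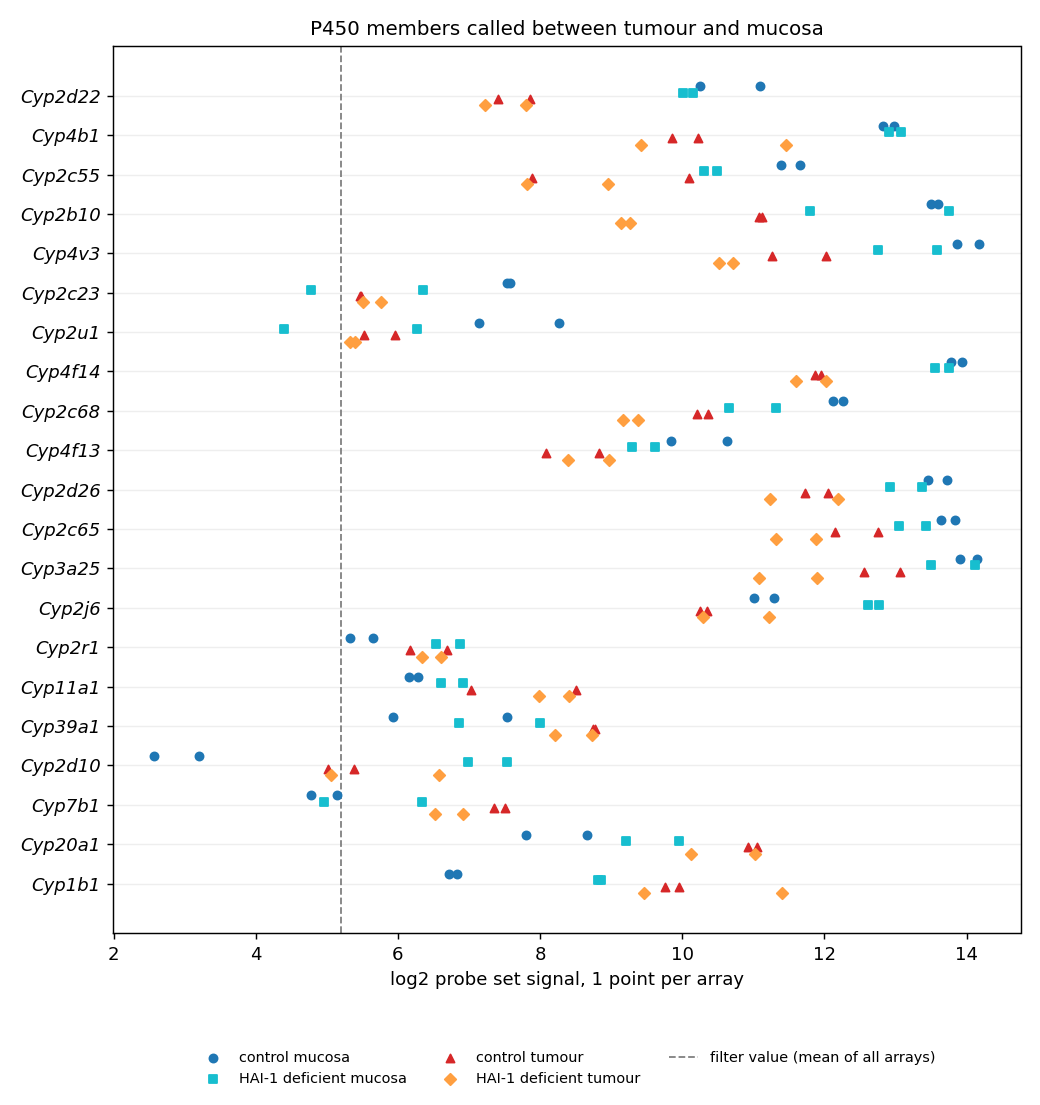
Log2 probe set signal (x axis) of the 21 P450 genes called between tumour and mucosa in either genotype, 1 point per array, with colour and shape giving the group and the dashed line the filter value of 5.20. Genes are ordered by their difference in control mice, from Cyp2d22 at -3.03 to Cyp1b1 at 3.08, and the control mucosa points lie to the right of the control tumour points from Cyp2d22 down to Cyp2j6 and to the left from Cyp2r1 down.

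Family 2 is the main drug and arachidonic acid metabolising family, with 34 members besides Cyp2r1, of which 18 were tested. In control mice 8 of the 18 were lower in tumours and 1 was higher, with a median difference of -1.37, and in deficient mice 5 were lower and none higher, with a median of -1.54. Cyp2b10 is the classical target of the receptor CAR. It read 13.50 and 13.60 in control mucosa, 11.79 and 13.75 in deficient mucosa, 11.08 and 11.12 in control tumours, and 9.14 and 9.26 in deficient tumours. All tumour arrays lay under all mucosa arrays, and the deficient tumours lay under the control tumours. Cyp2b10 fell by 2.45 ± 0.55 in tumours of control mice (adjusted p = 0.0157) and fell by 3.57 ± 0.55 in those of deficient mice (adjusted p = 0.0291). A pair of further Cyp2b10 probe sets gave differences of -2.38 and -2.72 in control mice and -3.92 and -3.69 in deficient mice.

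The Cyp2c subfamily holds epoxygenases, which turn arachidonic acid into signalling epoxides, and 7 of its members were tested. All 7 had negative differences in control mice, from -2.53 to -0.80, and 4 of them were called lower. In deficient mice 6 of the 7 were negative and 2 were called. Cyp2c65 is an intestinal member of the subfamily. It read 13.65 and 13.83 in control mucosa, 13.06 and 13.43 in deficient mucosa, 12.14 and 12.76 in control tumours, and 11.88 and 11.32 in deficient tumours, so the groups formed an order without overlap. Cyp2c65 fell by 1.29 ± 0.32 in tumours of control mice (adjusted p = 0.0235) and by 1.64 ± 0.32 in those of deficient mice (adjusted p = 0.0411). Cyp2c68 showed the same non-overlapping order, with 12.12 and 12.26, then 10.65 and 11.32, then 10.36 and 10.21, then 9.38 and 9.17 for the same 4 groups. It fell by 1.91 ± 0.29 (adjusted p = 0.00425) and by 1.72 ± 0.29 (adjusted p = 0.0309).

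The other called Cyp2c genes passed in control mice and not in deficient mice, and the test of the difference between genotypes called no member. Cyp2c55, which the intestine and liver induce with CAR and PXR ligands, read 11.65 and 11.39 in control mucosa, 10.49 and 10.31 in deficient mucosa, 10.10 and 7.88 in control tumours, and 7.81 and 8.96 in deficient tumours. It fell by 2.53 ± 0.68 in control mice (adjusted p = 0.0301) and differed by -2.01 in deficient mice without passing (adjusted p = 0.13). The second control tumour array, with the high Gapdh ratio, was the low one of that pair. Cyp2c23, an arachidonic acid epoxygenase known from the kidney, read 7.53 and 7.57 in control mucosa but 4.77 and 6.35 in deficient mucosa, 5.47 and 5.49 in control tumours, and 5.77 and 5.52 in deficient tumours. Control mucosa stood above the other 3 groups, which overlapped. It fell by 2.07 ± 0.47 in tumours of control mice (adjusted p = 0.0156), and the difference in deficient mice was 0.08.

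Cyp2c29 and Cyp2c38 were not called. Cyp2c29 read 8.71 and 8.91 in control mucosa, 8.54 and 9.31 in deficient mucosa, 7.09 and 8.07 in control tumours, and 5.15 and 7.04 in deficient tumours. Its tumour arrays lay under its mucosa arrays, with differences of -1.23 (adjusted p = 0.177) and -2.83 (adjusted p = 0.0514). Cyp2c38 read 6.91 and 6.18, then 6.26 and 7.08, then 5.68 and 4.49, then 5.51 and 5.91 in the same group order, and its tumour arrays also lay under its mucosa arrays, with differences of -1.46 and -0.95. Near-identical copies in the Cyp2c, Cyp2d, Cyp3a and Cyp4f clusters can share probes, so a value given to a single gene of these is uncertain to that extent. The probe sets used for Cyp2b10, Cyp2c23, Cyp2c65, Cyp4v3 and Cyp7b1 carry the suffix that the array maker gives to sets able to match several transcripts.

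Among the 5 tested Cyp2d genes, a subfamily that oxidises basic drugs, Cyp2d22 and Cyp2d26 were lower in tumours of control mice. Cyp2d22 read 11.10 and 10.24 in control mucosa, 10.15 and 10.01 in deficient mucosa, 7.86 and 7.41 in control tumours, and 7.23 and 7.81 in deficient tumours. The mucosa arrays stood clear of the tumour arrays, and the tumour groups of the genotypes overlapped. Cyp2d22 fell by 3.03 ± 0.36 in control mice (adjusted p = 0.00209) and by 2.56 ± 0.36 in deficient mice (adjusted p = 0.0281), and its second probe set gave -2.31 and -2.27. Cyp2d26 read 13.73 and 13.45, then 13.37 and 12.92, then 12.06 and 11.72, then 11.24 and 12.19 in the same order. It fell by 1.70 ± 0.37 in control mice (adjusted p = 0.0135) and differed by -1.43 in deficient mice (adjusted p = 0.0704). Cyp2d10, the Cyp2d gene called higher, is described with the effect of HAI-1 loss.

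Of the Cyp2j genes, which make epoxides from arachidonic acid and are known from intestine and heart, Cyp2j6 was called only in deficient mice. It read 11.01 and 11.29 in control mucosa, 12.61 and 12.77 in deficient mucosa, 10.24 and 10.36 in control tumours, and 10.29 and 11.22 in deficient tumours. Deficient mucosa stood above every other array. Cyp2j6 fell by 1.93 ± 0.34 in deficient mice (adjusted p = 0.0333) against a difference of -0.85 in control mice (adjusted p = 0.0983), and the test of the difference between genotypes gave -1.09 (adjusted p = 0.551). Cyp2j9 read 5.82 and 6.27, then 7.19 and 8.35, then 5.22 and 6.13, then 5.63 and 5.89, with deficient mucosa again above the rest and no call. Cyp2u1, a fatty acid hydroxylase, read 7.14 and 8.27 in control mucosa, 4.40 and 6.26 in deficient mucosa, 5.53 and 5.95 in control tumours, and 5.39 and 5.33 in deficient tumours. It fell by 1.96 ± 0.61 in tumours of control mice (adjusted p = 0.0482), a call kept in 6 of 16 alternatives, and its second probe set read 1.63 on the second control tumour array, its lowest value.

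Family 3, which holds the main intestinal drug oxidases, had 3 tested members of 5, and all 3 had negative differences in both genotypes. Cyp3a25 read 13.90 and 14.15 in control mucosa, 13.50 and 14.12 in deficient mucosa, 13.07 and 12.56 in control tumours, and 11.09 and 11.90 in deficient tumours. Mucosa lay above tumour without overlap, and control tumours above deficient tumours. Cyp3a25 fell by 1.21 ± 0.37 in control mice (adjusted p = 0.0451) and by 2.32 ± 0.37 in deficient mice (adjusted p = 0.0302). Cyp3a11, the main PXR-induced member, read 14.56 and 14.27, then 14.68 and 14.76, then 13.38 and 14.14, then 10.89 and 13.91 in the same group order. Its lowest value came from the first deficient tumour array, and its differences of -0.66 and -2.32 did not pass (adjusted p = 0.591 and 0.143). Cyp3a13, an intestinal member, read 14.03 and 14.10, then 14.62 and 14.59, then 13.25 and 13.85, then 13.09 and 13.94, with every tumour array under every mucosa array. Its differences of -0.51 and -1.09 did not pass either.

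Family 4 hydroxylates fatty acids and eicosanoids at the chain end, and 7 of its 11 members were tested. In control mice 4 of the 7 were lower in tumours and in deficient mice 2, with no member higher. Cyp4v3, the mouse relative of a human lipid hydroxylase, read 14.18 and 13.86 in control mucosa, 12.76 and 13.59 in deficient mucosa, 12.02 and 11.27 in control tumours, and 10.51 and 10.72 in deficient tumours, so the 4 groups did not overlap. Cyp4v3 fell by 2.38 ± 0.38 in control mice (adjusted p = 0.00486) and by 2.56 ± 0.38 in deficient mice (adjusted p = 0.0281), and its second probe set gave -2.98 and -2.85. Cyp4f14, a leukotriene hydroxylase, read 13.93 and 13.78, then 13.55 and 13.76, then 11.87 and 11.96, then 11.60 and 12.02. Mucosa and tumour were far apart, and the genotypes lay close together within each tissue. Cyp4f14 fell by 1.94 ± 0.25 (adjusted p = 0.00271) and by 1.85 ± 0.25 (adjusted p = 0.0281).

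Cyp4b1, which hydroxylates short fatty acids and protoxins, read 12.82 and 12.98 in control mucosa, 12.90 and 13.08 in deficient mucosa, 10.22 and 9.86 in control tumours, and 9.43 and 11.46 in deficient tumours. The mucosa groups overlapped, and the deficient tumours spread widely. Cyp4b1 fell by 2.86 ± 0.58 in control mice (adjusted p = 0.0111) and differed by -2.55 ± 0.58 in deficient mice (adjusted p = 0.0545). Cyp4f13 read 10.63 and 9.84, then 9.61 and 9.29, then 8.83 and 8.08, then 8.39 and 8.98, and fell by 1.78 ± 0.40 in control mice (adjusted p = 0.0151), with a difference of -0.77 in deficient mice. Cyp4f39, a member of the same subfamily, was not called: it read 5.28 and 5.27, then 5.66 and 5.81, then 6.76 and 5.57, then 5.15 and 4.62, close to the filter value on most arrays.

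**Figure D2:**
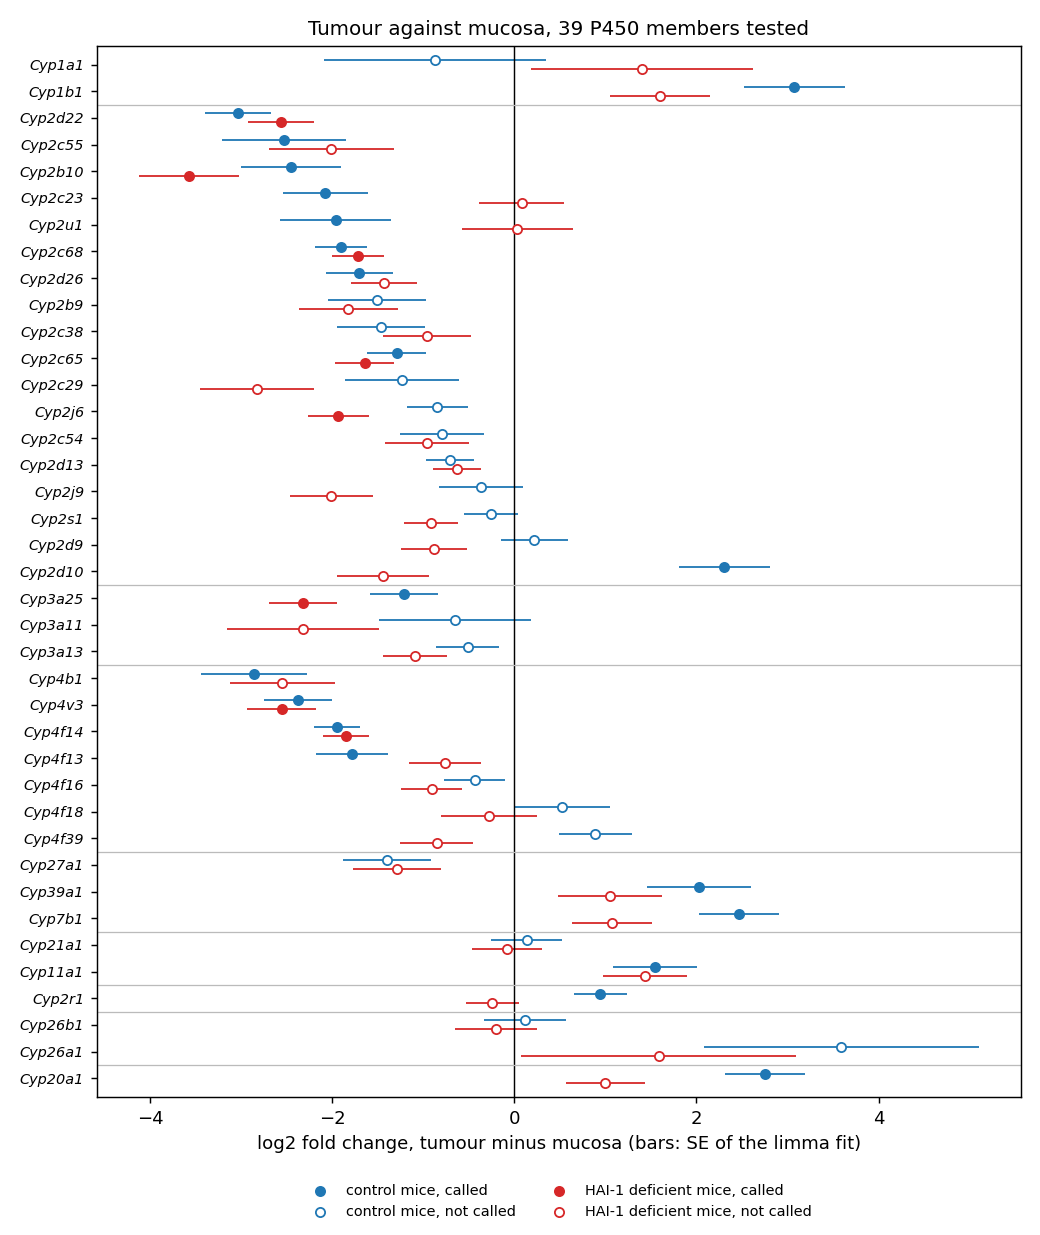
Log2 difference of tumour minus mucosa (x axis, bars: SE of the limma fit) for each of the 39 tested P450 genes, in control mice (blue) and HAI-1 deficient mice (red), with filled points for calls and grey lines between functional classes. In control mice 26 of the 39 differences were negative and in deficient mice 30, and the 7 filled points on the positive side all belong to control mice.

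The members that were higher in tumours of control mice came from several families and roles. Cyp2d10 and Cyp2r1 were among them, so higher and lower calls did not split by family name. Cyp1b1, which oxidises oestrogens and polycyclic hydrocarbons and is known from mesenchymal cells, read 6.84 and 6.72 in control mucosa, 8.82 and 8.86 in deficient mucosa, 9.95 and 9.76 in control tumours, and 9.46 and 11.41 in deficient tumours. Control mucosa was lowest, deficient mucosa intermediate and both tumour groups highest, with no overlap between tissues. Cyp1b1 rose by 3.08 ± 0.55 in tumours of control mice (adjusted p = 0.0072) and differed by 1.60 ± 0.55 in deficient mice (adjusted p = 0.133), and its second probe set gave 2.85 and 1.80. Cyp1a1, the most inducible target of the aryl hydrocarbon receptor, read 8.01 and 8.60, then 9.33 and 5.14, then 6.48 and 8.39, then 8.60 and 8.68. Its arrays of deficient mucosa lay further apart than any group means did, and it was not called.

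Genes of the bile acid and oxysterol pathway were tested for 3 of 6 members, and 2 were higher. Cyp7b1, an oxysterol hydroxylase, read 5.15 and 4.77 in control mucosa, 6.34 and 4.96 in deficient mucosa, 7.50 and 7.35 in control tumours, and 6.92 and 6.52 in deficient tumours, so all tumour arrays lay above all mucosa arrays. Since both control mucosa arrays lay under the filter value, its rise in control mice was at least 4.68-fold. The limma adjusted p of 0.00714 belongs to the fitted difference, before dim values were raised. Cyp39a1, a further oxysterol hydroxylase, read 5.93 and 7.53, then 6.85 and 8.0, then 8.75 and 8.77, then 8.73 and 8.22, and rose by 2.03 ± 0.57 in control mice (adjusted p = 0.0341). Cyp27a1, a mitochondrial sterol hydroxylase, ran the other way without a call, at 11.05 and 10.94, then 10.73 and 11.60, then 9.95 and 9.24, then 9.27 and 10.49.

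The remaining higher calls were single genes of several roles. Cyp11a1, the side-chain cleavage enzyme that starts steroid synthesis, read 6.28 and 6.16 in control mucosa, 6.61 and 6.91 in deficient mucosa, 8.51 and 7.03 in control tumours, and 8.41 and 7.98 in deficient tumours, and rose by 1.55 ± 0.46 in control mice (adjusted p = 0.0418). Its call was kept in 6 of 17 alternatives. Cyp2r1, a vitamin D hydroxylase, read 5.33 and 5.64, then 6.88 and 6.54, then 6.17 and 6.69, then 6.60 and 6.34, with control mucosa under the other 3 groups. It rose by 0.94 ± 0.29 (adjusted p = 0.0464), and this call was kept in 2 of 16 alternatives and in none of the 8 that left out an array. Cyp20a1, a member with no settled substrate, read 7.81 and 8.66, then 9.20 and 9.95, then 10.92 and 11.05, then 11.03 and 10.12, and rose by 2.75 ± 0.44 (adjusted p = 0.00486). Its second probe set, dimmer and of a kind that can match other transcripts, differed by 0.04, so the probe sets of this gene disagreed.

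The retinoic acid hydroxylases Cyp26a1 and Cyp26b1, which clear the vitamin A hormone, were not called. Cyp26a1 read 5.35 and 0.00 in control mucosa, 5.52 and 5.04 in deficient mucosa, 6.66 and 5.87 in control tumours, and 5.87 and 7.85 in deficient tumours. The value of 0.00 is the lowest the table holds. The fitted difference in control mice was 3.59 with it (adjusted p = 0.114) and 0.92 without that array, while without the first control mucosa array it was 6.27 and was called (adjusted p = 0.00988). Cyp26b1 read 6.22 and 6.43, then 6.22 and 7.28, then 6.54 and 6.35, then 6.01 and 7.08, with all 4 groups overlapping. The 8 tested members not described singly, Cyp21a1, Cyp2b9, Cyp2c54, Cyp2d13, Cyp2d9, Cyp2s1, Cyp4f16 and Cyp4f18, were called in no comparison. Their differences between tumour and mucosa ran from -1.51 to 0.52 in control mice and from -1.82 to -0.08 in deficient mice, where all 8 were negative.

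The 31 members under the filter, which have no reported values, were Cyp11b1, Cyp11b2, Cyp17a1, Cyp1a2, Cyp24a1, Cyp27b1, Cyp2a12, Cyp2b13, Cyp2b19, Cyp2c37, Cyp2c39, Cyp2c50, Cyp2c70, Cyp2d12, Cyp2d34, Cyp2d40, Cyp2e1, Cyp2f2, Cyp2g1, Cyp2j11, Cyp2j13, Cyp2j5, Cyp3a16, Cyp3a44, Cyp46a1, Cyp4a14, Cyp4a31, Cyp4f15, Cyp4x1, Cyp7a1 and Cyp8b1. They include liver enzymes of bile acid synthesis such as Cyp7a1 and Cyp8b1 and the adrenal steroid enzymes Cyp11b1 and Cyp11b2.

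Upstream flanks of members that moved in each direction are shown, so that their letters can be set beside the values above. The 250 bases before the annotated start were read from RefSeq's table for mouse assembly GRCm38.p6, which held 51 of the 70 members and 31 of the 39 tested. Capitals mark matches, on either strand, to 6 motifs, and no matches overlapped each other in these sequences. The TATA box was searched with the letters TATAAA. The half-site that nuclear receptors bind was searched as AGGTCA, and the half-site of the liver and gut factor HNF1 as GTTAAT. For the core of the HNF4 motif the letters were CAAAGTC, and for the core of the intestinal CDX factors they were TTTATG. The core of the aryl hydrocarbon response element was searched as GCGTG. Cyp2b10, Cyp2c65, Cyp2c68 and Cyp4v3 were lower in tumours of both genotypes, Cyp1b1 was higher in tumours of control mice, and Cyp2d10 was higher in deficient mucosa.
Cyp2b10, chr7:25897408-25897657, plus strand: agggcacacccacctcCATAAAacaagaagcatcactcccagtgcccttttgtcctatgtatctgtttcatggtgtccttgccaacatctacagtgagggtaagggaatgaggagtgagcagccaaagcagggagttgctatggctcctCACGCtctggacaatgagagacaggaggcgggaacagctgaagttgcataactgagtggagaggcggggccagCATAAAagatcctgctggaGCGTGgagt
Cyp2c65, chr19:39060756-39061005, plus strand: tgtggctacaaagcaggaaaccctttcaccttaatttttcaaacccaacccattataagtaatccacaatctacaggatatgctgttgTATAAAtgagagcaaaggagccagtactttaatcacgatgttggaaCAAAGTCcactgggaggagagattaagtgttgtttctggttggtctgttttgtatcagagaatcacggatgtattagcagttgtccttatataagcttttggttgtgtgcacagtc
Cyp2c68, chr19:39741102-39741351, minus strand: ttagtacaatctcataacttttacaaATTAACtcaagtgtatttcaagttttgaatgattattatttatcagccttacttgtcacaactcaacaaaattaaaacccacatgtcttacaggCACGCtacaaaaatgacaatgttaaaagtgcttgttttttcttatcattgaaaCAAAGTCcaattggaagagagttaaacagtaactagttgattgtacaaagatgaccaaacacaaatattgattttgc
Cyp4v3, chr8:45333164-45333413, minus strand: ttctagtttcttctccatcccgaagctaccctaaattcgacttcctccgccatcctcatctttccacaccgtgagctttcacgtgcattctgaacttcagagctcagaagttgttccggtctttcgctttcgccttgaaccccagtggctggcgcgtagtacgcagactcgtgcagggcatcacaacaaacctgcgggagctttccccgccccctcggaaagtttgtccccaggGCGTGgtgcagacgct
Cyp1b1, chr17:79715062-79715311, minus strand: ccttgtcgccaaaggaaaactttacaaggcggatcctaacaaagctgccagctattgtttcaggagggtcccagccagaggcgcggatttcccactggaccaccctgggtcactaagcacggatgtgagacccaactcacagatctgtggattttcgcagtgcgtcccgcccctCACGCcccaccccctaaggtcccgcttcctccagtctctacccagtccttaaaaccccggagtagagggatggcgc
Cyp2d10, chr15:82407195-82407444, minus strand: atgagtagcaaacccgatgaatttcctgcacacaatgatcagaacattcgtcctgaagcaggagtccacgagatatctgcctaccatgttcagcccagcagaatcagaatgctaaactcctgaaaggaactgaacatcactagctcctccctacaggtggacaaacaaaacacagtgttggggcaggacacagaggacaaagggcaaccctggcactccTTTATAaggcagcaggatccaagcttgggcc

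The HNF4 motif core stood in both Cyp2c flanks, with its first base 116 bases before the start in Cyp2c65 and 77 bases before it in Cyp2c68. This core was added to the search after the sequences had been seen. It was present in 13 of the 51 members (25.5%) and in 4.33% of the 27025 genes in the table, and copies that arose by duplication share such letters. It was also in 2 of the 10 members called lower in control tumours that had a flank, and in 0 of the 5 called higher. The TATA box letters were in 19 of 51 members (37.3%) against 14.3% of all genes, the nuclear receptor half-site in 12 (23.5%) against 15.8%, and the CDX core in 7 (13.7%) against 12.4%. The HNF1 half-site was in 3 (5.88%) against 7.49%, and all 3 of these, Cyp2c68, Cyp2d26 and Cyp4f14, were among the 10. The aryl hydrocarbon core was in 12 (23.5%) against 30.9%, among them Cyp1b1 and Cyp1a1. It was in 4 of the 10 called lower, Cyp2b10, Cyp2c68, Cyp4f14 and Cyp4v3, and in 2 of the 5 called higher. A match describes letters in this window and was not tested as a binding site.

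The question of what HAI-1 loss did was asked within mucosa and within tumours. In mucosa 1 of the 39 members was called, Cyp2d10, which was higher in deficient mice, beside 1.05% of all tested genes (0.899% higher and 0.152% lower). Cyp2d10 read 2.58 and 3.20 in control mucosa, 7.53 and 6.99 in deficient mucosa, 5.01 and 5.38 in control tumours, and 5.06 and 6.57 in deficient tumours. Deficient mucosa stood above, and control mucosa below, every other array. Both control mucosa arrays lay under the filter value, so the rise was at least 4.16-fold. By limma the adjusted p was 0.0348 for the fitted difference and 0.0486 with dim values raised to the filter value. In the low and in the high spike-in set, of 1 array against 1, the deficient mucosa array lay above the control mucosa array. This had to follow from the separation of the groups, so it is no further check. The gene's mean of 5.29 lay just over the filter, which it passed through the groups where it was high.

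The call on Cyp2d10 was lost without filtering (adjusted p = 0.13) and without any 1 of the arrays of control mucosa, control tumours or deficient mucosa (adjusted p from 0.0635 to 0.139). Without either deficient tumour array, 3 members were called, Cyp1b1, Cyp2d10 and Cyp2j6. Cyp2d10 was also among the 7 members called higher in tumours of control mice, against the same control mucosa arrays. No fold is given there, because the control tumour mean of 5.20 did not exceed the filter value, and with dim values raised to it the difference was 0.09 (adjusted p = 0.895). Of the 39 tested members, 8 had at least 1 group mean under the filter value.

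Several other members separated the mucosa groups without a call. Over the 39 members, 12 had every deficient mucosa array above every control mucosa array and 10 the reverse. Of all tested genes, 30.9% and 17.3% were separated in these directions, and 1.05% were called. By limma 10 members had an unadjusted p under 0.05, as did 17.5% of all tested genes. The largest positive values after Cyp2d10 were 2.60 for Cyp26a1, 2.06 for Cyp1b1 (adjusted p = 0.114), 1.73 for Cyp2j9 (adjusted p = 0.113) and 1.54 for Cyp2j6 (adjusted p = 0.0746). Without the array at 0.00, that of Cyp26a1 was -0.071. The largest negative values were -2.37 for Cyp2u1 (adjusted p = 0.108), -1.99 for Cyp2c23 (adjusted p = 0.0865), -1.20 for Cyp2c68 (adjusted p = 0.0902), -1.13 for Cyp2c55 and -1.07 for Cyp1a1. The second probe set of Cyp2u1 gave -0.53 here, and that of Cyp2j6 gave 1.34. That of Cyp1b1 gave 0.92, with control mucosa arrays at 4.82 and 4.89, under the filter value. Over the members the median was 0.17, against 0.11 over all genes.

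**Figure D3:**
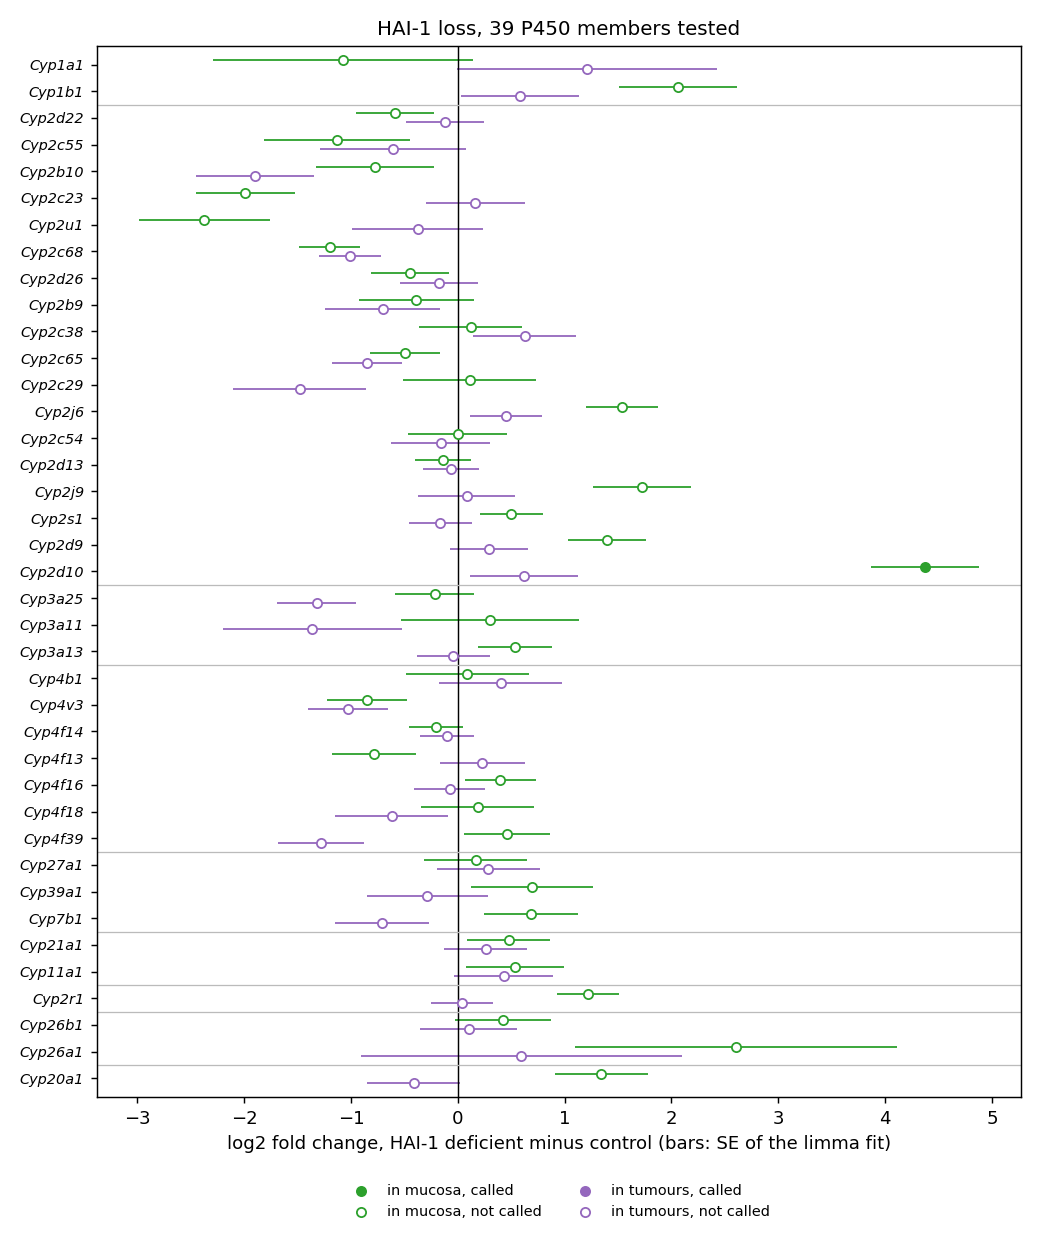
Log2 difference of HAI-1 deficient minus control (x axis, bars: SE of the limma fit) for the 39 tested P450 genes, in mucosa (green) and in tumours (purple), with filled points for calls and grey lines between functional classes. The only filled point is Cyp2d10 in mucosa, plotted at its fitted 4.37 against control arrays under the filter value. With dim values raised to that value it was 2.06.

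In tumours no member was called for HAI-1 loss, and no gene of the 13119 was (0%). By limma 7 members had an unadjusted p under 0.05, as did 6.11% of all tested genes, and the smallest adjusted p was 0.779. The count was 0 under every alternative run. Negative values led. Cyp2b10 differed by -1.90 ± 0.55, Cyp2c29 by -1.48, Cyp3a11 by -1.36, Cyp3a25 by -1.32 and Cyp4f39 by -1.28. For Cyp2b10, Cyp2c29, Cyp3a25 and Cyp4f39 each deficient tumour array lay under each control tumour array. Of the members, 11 were separated in this direction and 3 in the other, beside 19.4% and 18.6% of all tested genes. The largest positive values were 1.21 for Cyp1a1, 0.63 for Cyp2c38, 0.62 for Cyp2d10, 0.60 for Cyp26a1 and 0.58 for Cyp1b1. The second probe set of Cyp1b1 gave -0.12. The value of Cyp3a11 rested on the first deficient tumour array and was 0.15 without it. The median over all members was -0.10 beside -0.01 over all genes.

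Whether HAI-1 loss acted differently in tumours and in mucosa was tested as an interaction, with the mucosa difference subtracted from the tumour difference. No member and no other gene was called (0%), and the count was 0 under every alternative run. By limma 6 members had an unadjusted p under 0.05, as did 9.23% of all tested genes. The 5 largest negative values were -3.75 ± 0.71 for Cyp2d10 (adjusted p = 0.254), -2.01 for Cyp26a1, -1.76 for Cyp20a1, -1.74 for Cyp4f39 and -1.66 for Cyp3a11. With dim values raised to the filter value, that of Cyp2d10 was -1.46 and that of Cyp26a1 was 0.51, so both rest in part on arrays under it. The 5 largest positive values were 2.28 for Cyp1a1, 2.15 for Cyp2c23, 2.0 for Cyp2u1, 1.02 for Cyp4f13 and 0.52 for Cyp2c55. So a call in tumours of control mice and none in deficient mice, as for Cyp1b1 or Cyp2c55, was not shown to be a difference between genotypes.

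Genes that serve or regulate the P450 enzymes were read from lists chosen with earlier results known. Of 5 tested redox partners, which pass on electrons, 3 were lower in tumours of control mice: the cytochrome b5 gene Cyb5b by 1.33, the b5 reductase Cyb5r3 by 1.28 and Pgrmc1 by 1.20. In deficient mice 0 of the 5 were called. Of 11 haem genes, 2 were higher in control mice: Hmox1, which degrades haem, at least 7.60-fold, and the biliverdin reductase Blvrb, which rose by 0.94. Blvrb rose by 1.75 in deficient mice. Of 5 aryl hydrocarbon pathway genes, Ahr itself rose by 1.40 in control mice, while its repressor gene Ahrr and its target Tiparp differed by -1.05 and -0.65 without a call. Por, the main electron donor, was not analysed here.

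Of 21 tested nuclear receptors and liver-type regulators of P450 genes, 6 were lower and 1 higher in tumours of control mice, and 2 lower and 1 higher in those of deficient mice. Nr1i3, which encodes CAR, read 10.56 and 10.34 in control mucosa, 11.13 and 10.40 in deficient mucosa, 8.40 and 8.38 in control tumours, and 8.35 and 9.41 in deficient tumours. It fell by 2.06 ± 0.40 and by 1.89 ± 0.40, with every tumour array under every mucosa array. Nr1i2, which encodes PXR, fell by 1.42 in control mice, as did their partner Rxra by 1.17, the oxysterol receptor Nr1h3 by 2.24 and Nr5a2 by 1.20. Hnf4g fell by 1.93 in control mice and by 1.85 in deficient mice. Its relative Hnf4a read 13.14 to 13.78 on all 8 arrays and was not called. Rarb, a retinoic acid receptor, rose by 2.19 and by 2.43. No receptor was called for HAI-1 loss in mucosa, and no gene at all for HAI-1 loss in tumours.

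**Figure D4:**
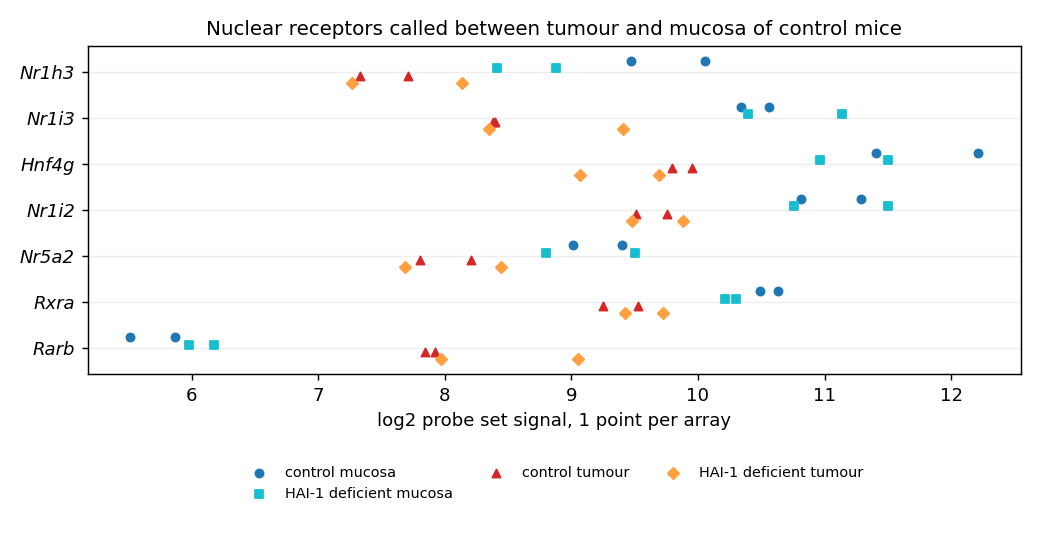
Log2 probe set signal (x axis) of the 7 nuclear receptor and regulator genes called between tumour and mucosa of control mice, 1 point per array, with colour and shape giving the group. For the upper 6 genes the tumour points lie to the left of the mucosa points, and for Rarb they lie to the right, from 7.85 to 9.05 against 5.51 to 6.18.

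Enzymes that act next to the P450 epoxygenases on the same lipids were called in both directions, 5 higher and 2 lower of 10 in control mice and 2 and 2 in deficient mice. Ephx2, the soluble epoxide hydrolase, fell by 1.94 and by 2.22 in the 2 genotypes, and Hpgd, which inactivates prostaglandins, fell by 1.55 and by 2.25. Ptgs2, the inducible prostaglandin synthase, read 6.69 and 6.55 in control mucosa, 7.25 and 7.43 in deficient mucosa, 11.09 and 10.15 in control tumours, and 9.10 and 9.13 in deficient tumours. It rose by 4.0 ± 0.33 and by 1.78 ± 0.33. Ephx4, a further epoxide hydrolase, was at least 6.34-fold higher in tumours of control mice and rose by 1.79 in deficient mice. It was also the only gene of these lists called for HAI-1 loss in mucosa, at least 2.07-fold higher. The limma adjusted p of 0.0486 belongs to its fitted difference, before dim values were raised.

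Cell type markers differed between the groups as well, in the tumour contrasts and in part between the mucosa groups. The enterocyte list (9 tested of 10) had a log2 summed level of 17.65 to 17.69 in control mucosa, 17.58 to 17.78 in deficient mucosa, 17.11 to 17.24 in control tumours and 16.84 to 17.18 in deficient tumours, and 3 of the 9 were lower in each tumour contrast. The ileum list (4 of 5) ran from 14.08 to 14.24 and from 13.22 to 13.67 in the mucosa groups, and from 11.38 to 11.93 and from 11.39 to 11.99 in the tumour groups. The list of the proximal small intestine lay between 15.29 and 15.94 over the groups in summed level, which its brightest genes dominate. By gene, 3 of its 6 were higher in tumours of control mice, where the median difference was 2.44. With HAI-1 loss in mucosa all 6 had positive differences, with a median of 1.05 and no call. The pan-epithelial list lay at 16.89 to 17.13 in mucosa and 17.08 to 17.24 in tumours. The fibroblast and smooth muscle list (8 of 8) went from 11.36 to 11.46 in control mucosa and 12.34 to 12.82 in deficient mucosa to 15.002 to 15.104 in control tumours and 14.53 to 14.62 in deficient tumours, and all 8 of its genes were higher in tumours of control mice. With HAI-1 loss in mucosa all 8 had positive differences, with a median of 1.36 and no call. The mast cell list (5 of 6) stood at 11.32 to 12.43 and 10.28 to 10.33 in mucosa and at 15.41 to 15.45 and 12.47 to 15.03 in tumours. The endothelial list stood at 8.61 to 8.64 in control mucosa, 9.93 to 10.54 in deficient mucosa, 10.46 to 10.88 in control tumours and 10.43 to 11.60 in deficient tumours. Of its 5 genes, 3 were higher in tumours of control mice and 1 was higher with HAI-1 loss in mucosa, where the median was 2.10. The stomach list (5 of 7) stood at 9.61 to 9.78 and 11.15 to 11.67 in the mucosa groups, and at 11.74 to 13.67 and 13.27 to 13.28 in the tumour groups. Of its 5 tested genes, 2 were higher in tumours of control mice and 1 in those of deficient mice, and with HAI-1 loss in mucosa all 5 were positive without a call, with a median of 2.39. The list of pancreatic acinar cells (3 of 8) stood at 9.95 to 10.27 and 11.05 to 11.24 in mucosa and at 12.13 to 12.32 and 12.45 to 13.41 in tumours, with 1 gene higher in each tumour contrast. The macrophage list lay at 11.59 to 12.31 in control mucosa, 11.36 to 12.25 in deficient mucosa, 12.05 to 12.14 in control tumours and 11.70 to 11.90 in deficient tumours, and 2 of its 6 genes were higher in tumours of control mice. No marker stood at the lowest value of the table on any array. The part of these shifts in the P450 values was not tested.

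The hepatocyte list (6 of 10), relevant since many members are known from liver, stood at 9.28 to 9.42 in control mucosa, 9.77 to 10.01 in deficient mucosa, 11.63 to 11.80 in control tumours and 11.30 to 11.74 in deficient tumours. Of the 6 tested genes, 3 were called higher and 1 lower in tumours of control mice. In deficient mice 2 were called higher and 0 lower. Its members did not move as a block: Alb and Ttr, blood transport proteins, rose in tumours of both genotypes, Apoa2 was not called, and Serpina1c fell in tumours of control mice. Alb read 2.40 and 1.55 in control mucosa and 10.09 and 9.01 in control tumours. The 7 tested Cyp2c and 3 tested Cyp3a genes, which the liver and enterocytes both express, had negative differences in the same comparison. Whether liver-type transcripts contribute to the P450 values was not tested.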

How the data were processed

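RNA was measured on 8 Affymetrix arrays, 2 per group. The deposited table holds log2 signals per probe set; per the submitters' processing notes MAS5 and RMA were used, and the sources used here give neither their roles nor their versions. The values have the MAS5 form: the trimmed linear mean of each array was 500.003 to 500.004. They were used as deposited, without detection calls.

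Probe sets listed for 1 gene with a mean at or over the 40th percentile (5.20 log2, 36.8 linear) were kept, with the highest-mean set per gene. A model with 4 group means was fitted with limma 3.58.1 in R 4.3.3 (4 residual and 3.52 prior degrees of freedom), two-sided, with Benjamini-Hochberg adjustment over 13119 genes per contrast, and was tested on simulated data. Where arrays of the lower group lay under 5.20, they were raised to it for an "at least" fold. Summed marker levels are log2 of summed linear signals. Members and lists were chosen with earlier results of these data known. Values are given for members called in any comparison, for the 5 largest differences in each direction and for the brightest member of each class. Other tested members enter the counts and ranges, and members under the filter are given by name. Genes named Cyp4a12a and Cyp4f41-ps, which lay under it, and probe sets listing several genes were not counted. All 70 members were found in the GRCm38.p6 gene table under the same symbol. Alternatives varied the filter, probe set choice, normalization, variance model, groups fitted, array pairing, spike-in set and each array left out.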

Additional observations from a re-analysis of the deposited data

Results flagged for a closer look

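Of the 4 P450 probe sets that list several genes and so entered no test, 3 had every HAI-1 deficient array above every control array within a tissue. They were flagged by that separation. Of all tested genes, 30.9% were separated in this direction in mucosa and 18.6% in tumours. The probe set of Cyp2a5 and Cyp2a4, coumarin and steroid hydroxylases, differed by 2.60 on the log2 scale in mucosa, with 5.22 and 3.24 in control arrays and 6.74 and 6.92 in deficient arrays. In tumours it differed by 1.31, with 5.34 and 5.30 in control arrays and 6.18 and 7.09 in deficient arrays. The lowest of these, 3.24, lay under the filter value. The probe set of Cyp3a41b and Cyp3a41a differed by 0.66 in mucosa. In tumours it differed by -1.24, with 6.13 and 6.09 in control arrays and 4.47 and 5.26 in deficient arrays, so every deficient array lay below every control array there. The probe set of Cyp4f37 and Cyp4f16 differed by 0.71 in tumours. None of these differences was tested.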

How the results depend on the processing

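For HAI-1 loss in mucosa the 1 call became 0 without the filter, 2 with values floored at the filter value, 3 with a mean-variance trend, and 0 to 3 with 1 array left out. With the 60th percentile filter the 1 call was Cyp2j6, since Cyp2d10 was then not tested. For tumour against mucosa in control mice the 20 calls ranged from 9 to 20 with 1 array left out, and from 15 to 21 under the other alternatives. In deficient mice the 8 calls became 0 without the filter, 0 when each fit held just the compared groups, 11 with the 60th percentile filter, 12 with values floored, 12 with a trend, and 0 to 7 with 1 array left out. HAI-1 loss in tumours and the interaction gave 0 under all alternatives run. The fit to compared groups was not run for the interaction, which uses all groups. Deviations from group means correlated at -0.14 to 0.22 between same-numbered arrays of different groups. This cannot show if arrays were paired, because in both mucosa groups and in deficient tumours the replicate number coincides with the spike-in set. With the replicate block the counts were 1, 20 and 9 in mucosa, in control mice and in deficient mice. Of 487 values of called pairs of gene and comparison under an alternative, 339 kept the call and 148 lost it, with no change of sign. Signs changed in 11 of 603 values of pairs that were not called, and 21 of the 603 passed the threshold. With 1 array left out, HAI-1 loss in mucosa ranged from -3.17 to 1.03 for Cyp1a1 and from -0.071 to 5.28 for Cyp26a1. HAI-1 loss in tumours ranged from -0.39 to 1.55 for Cyp1b1, -0.40 to 1.59 for Cyp26a1, -0.14 to 1.37 for Cyp2d10 and -2.87 to 0.15 for Cyp3a11. Tumour against mucosa in deficient mice ranged from -0.69 to 3.50 for Cyp1a1. The interaction ranged from -4.68 to 0.67 for Cyp26a1, which was 0.51 with values floored, and from -0.59 to 1.63 for Cyp2c55, which was -0.055 without the second deficient tumour array. The cause of these changes was not tested. Dim signals limit the 8 members with a group mean under the filter value.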
